A study of Homo sapiens with 26 samples.

Results

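The constitutive distal H3K27ac core comprised 4889 regions of the genome that carried an H3K27ac peak in every one of 10 peak lists and lay at a distance from coding start sites. Histone H3 acetylated at lysine 27 (H3K27ac) had been profiled by ChIP-seq in HCT116, an established line of colorectal carcinoma cells that keep wild-type p53, and in a derivative of it in which RAD21, a subunit of cohesin, carries a degron tag (the RAD21 line). Members were selected on measured calls: all peaks of the 10 lists were merged where they overlapped into 87608 regions, regions with a peak in all 10 lists were kept (18757), and of these the regions whose midpoint lay 10 to 100 kb from the nearest start of a protein-coding transcript in GRCh37 formed the core. Being called is therefore not a finding about these regions, and their ranks within the lists are given as a description wherever they are not compared between groups.

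The parental cells (WT) had received the vehicle DMSO (0 h) or Nutlin-3a for 1 h or 10 h, and the RAD21 line DMSO (0 h) or Nutlin-3a for 1 h. Nutlin-3a is a small molecule that frees p53 from its inhibitor HDM2. The study describes degradation of RAD21 in the derivative with the auxin analogue 5-Ph-IAA ahead of Nutlin-3a, a treatment that the sample labels do not state, although the peak names of these lists carry the letters KD. Each group held 2 libraries with 1 list each, and H3 monomethylated at lysine 4 (H3K4me1) was available in 6 lists of the WT cells only. The labels number the 2 libraries of a group BR1 and BR2 and the study calls them biological replicates, without details of the cultures behind each, so the tests measure the spread between these libraries. All samples derive from 1 cell line, and the RAD21 line is an engineered derivative of it.

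Enhancers are stretches of DNA that raise transcription of a gene from a distance. H3K4me1 marks enhancers that are primed or active, and H3K27ac is added by p300 and CBP at active enhancers and promoters. Nucleosomes on either side of the bound transcription factors carry both marks. In epithelial tumour cells many distal elements hold sites for AP-1 (the dimers of the FOS and JUN families) and TEAD factors. p53 is a tetramer that binds 2 decamers of its consensus, often at distal elements, and activates genes of cell-cycle arrest and apoptosis. Cohesin extrudes chromatin loops that bring distal elements and promoters together.

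The lists held 31640 to 49127 H3K27ac peaks and 84492 to 92943 H3K4me1 peaks, and no read counts, so the depth behind each value is unknown. The peak names of 3 lists (both WT 0 h lists and replicate 1 of WT 1 h) lack the word input that the other 7 carry. In those 3 lists peaks covered a median of 1133 to 1181 bases of a core region, against 1310 to 1828 bases in the other 7. This difference in name form runs along with WT 0 h against WT 10 h, and only the 2 WT 1 h lists, one of each form, separate the one from the other. A fit with the name form as a term is therefore given beside the results at 10 h, and its term rests on that pair. The RAD21 line comparison of 1 h with 0 h lies within 1 name form, but its groups also differ in coverage. Peaks covered medians of 1310 and 1380 bases of a core region in its 0 h lists, and 1788 and 1828 in its 1 h lists. The part of this difference in its rank changes was not tested. As a check of the labelled cell type, the promoters of 9 of 10 epithelial marker genes held a peak in all 10 lists, CDH17 being the exception. Of 19 markers of other cell types 15 held none in any list, and COL1A1 held one in all 10.

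Sequences of the core are shown first for the regions in which the p53 consensus was found anywhere, since their ranks after 10 h of Nutlin-3a are described one by one below. The search covered both strands and allowed no spacer between the decamers. It found the element in 14 core regions, 0.286% of the core. Each line gives 5 bases before, the 20-base element in capitals and 5 bases after it, read from the plus strand of GRCh37 and named by the nearest coding gene. The region nearest to PLXDC1 holds 2 overlapping elements.
GPR157: gctcgGAACAAGCCCAGGCAAGCCCaggca
IER5: gagggAGGCATGCCCGGGCATGTCTgctgg
TGFA: attcaGAACATGCCCAGGCATGTCTgctac
HNRNPA3: agttcAAGCATGCCTGGGCATGTTTgtcaa
PLAC8: ttactGGGCATGCCTGGACATGTCTccaga
HLA-B: agctgGGACATGTCTGGGCATGTCCaggca
PRKAG2: tgcctGAGCATGTCTGAACATGTTCttagg
SPTLC1: cggtcAGACTTGCCTGGGCTTGTTCcacgc
MYF5: tatgaGAACAAGCCCAAACTAGCCTactga
RFLNA: gacaaGGACTAGCCTGGGCAAGTTCccatg
MED4: gcccaGGGCTTGTCTGGGCATGCCCataac
TMOD3: aggatAGGCAAGTTTGAACAAGTTTaggac
PLXDC1: tgtccAGACATGCCTGAACATGCCCaggca
PLXDC1: tgcctGAACATGCCCAGGCATGTCCcagct
MSI2: gcatcAGGCTAGCCTGGGCATGCCCttgtc

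Windows of 300 bases at the median summit of 4 members show the range of sequence in the core. The window near PTPDC1 (chr9:96928598-96928897) comes from the second strongest region and is CpG-rich, with 48 CpG and 78.3% GC. The window near GPR157 (chr1:9242077-9242376) holds a p53 element in capitals. The windows near ECHDC1 (chr6:127687679-127687978) and KLF6 (chr10:3797020-3797319) come from regions that differed between the lines and each hold 1 AP-1 match, TGANTCA, in capitals. Both have 42.0% GC, with 0 and 5 CpG. All 4 are given on the plus strand of GRCh37.
PTPDC1: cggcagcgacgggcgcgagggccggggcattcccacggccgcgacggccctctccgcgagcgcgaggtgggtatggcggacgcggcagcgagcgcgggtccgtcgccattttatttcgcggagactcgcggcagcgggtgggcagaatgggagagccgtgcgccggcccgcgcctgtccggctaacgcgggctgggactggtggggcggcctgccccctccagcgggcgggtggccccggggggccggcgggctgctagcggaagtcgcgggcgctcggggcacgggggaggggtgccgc
GPR157: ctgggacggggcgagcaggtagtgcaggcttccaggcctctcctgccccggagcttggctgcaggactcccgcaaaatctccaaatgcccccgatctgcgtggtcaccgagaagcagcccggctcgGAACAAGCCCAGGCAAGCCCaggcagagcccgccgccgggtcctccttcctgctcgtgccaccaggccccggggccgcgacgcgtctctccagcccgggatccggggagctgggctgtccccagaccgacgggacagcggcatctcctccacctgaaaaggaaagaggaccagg
ECHDC1: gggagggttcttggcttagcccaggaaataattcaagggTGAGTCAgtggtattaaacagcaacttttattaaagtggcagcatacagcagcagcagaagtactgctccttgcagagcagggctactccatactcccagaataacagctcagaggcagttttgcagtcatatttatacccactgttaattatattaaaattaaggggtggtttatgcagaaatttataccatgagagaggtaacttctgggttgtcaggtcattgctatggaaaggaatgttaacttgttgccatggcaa
KLF6: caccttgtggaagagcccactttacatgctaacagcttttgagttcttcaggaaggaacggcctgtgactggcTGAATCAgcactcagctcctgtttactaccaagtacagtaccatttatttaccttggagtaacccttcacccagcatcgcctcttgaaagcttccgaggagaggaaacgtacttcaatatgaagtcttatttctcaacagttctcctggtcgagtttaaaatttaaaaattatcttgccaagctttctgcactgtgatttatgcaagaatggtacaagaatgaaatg

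The core made up 26.1% of the regions called in all 10 lists and 12.6% of the 38952 merged regions at 10 to 100 kb. Among regions under 1 kb from a coding start the share called in all 10 lists was 70.1%, at 1 to 10 kb it was 10.1% and beyond 100 kb 18.4%. A further 929 regions at 10 to 100 kb missed a peak in 1 list only. Of these, 247 missed it in replicate 1 and 149 in replicate 2 of the RAD21 line at 0 h, and 27 in replicate 2 of the RAD21 line at 1 h. Just inside the lower limit lay regions near PHLDB1 (10002 bases, mean percentile 47.6) and GRK2 (10005 bases, 10.3), and just outside it regions near RASA4B (9997 bases, 20.9) and TBC1D3E (9992 bases, 20.0). At the upper limit the regions near CCZ1B (99813 bases, 16.4) and MAML2 (99764 bases, 41.5) were kept, and those near NAB1 (100098 bases, 6.75) and MPP7 (100115 bases, 26.8) were not.

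Position and the annotation placed 2276 core regions (46.6%) in introns, 203 (4.15%) on exons and 2410 (49.3%) between genes. Of the regions inside a coding gene, 1985 lay in the gene whose start was nearest and 494 in another one. The median distance to the coding start was 28521 bases. Although the core was defined by its distance from coding starts, 907 regions (18.6%) had their midpoint within 1 kb of some other annotated start. That start belonged to a long non-coding RNA in 526 of them, to a transcript of a protein-coding gene that is itself not protein-coding in 185 and to a small nuclear RNA in 34. The remaining 3982 regions (81.4%) lay away from any annotated start. A coding start lay inside 8 of the core regions, which are so wide that their midpoints still met the rule.

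Signal strength was described by the percentile of each region's peak, by −log10 p-value, among the 18757 regions of a list, so that 50 is the middle. The mean percentile over the 10 lists had a median of 28.1 in the core (quartiles 14.7 and 47.6), against 65.0 under 1 kb, 40.5 at 1 to 10 kb and 28.3 beyond 100 kb. Core regions at another annotated start had a median of 43.5 and those away from any start 25.8. Across the 10 lists the core median stayed between 27.01 and 30.9, and was highest in both WT 10 h lists (30.4 and 30.9). A single core region varied between lists by a median SD of 8.55 percentile points. Only 326 core regions (6.67%) had a mean above 75, and 92 above 90.

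**Figure D1:**
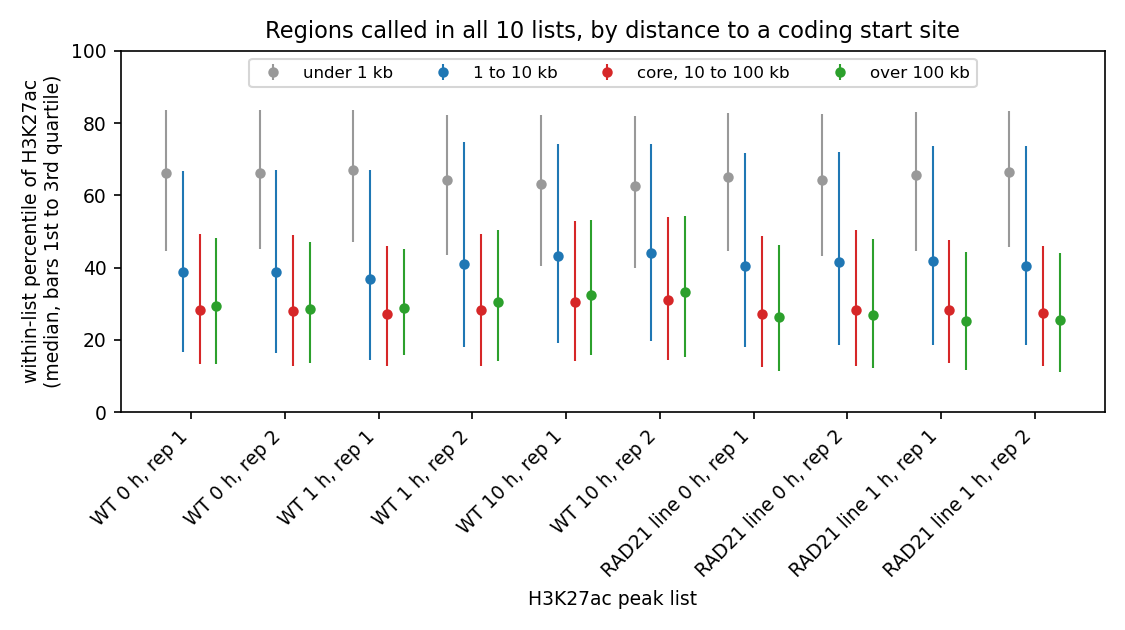
Within-list percentile of H3K27ac (vertical axis, 0 to 100) in each of the 10 lists for regions called in all lists, split by distance of the midpoint to the nearest coding start. Points are medians and bars run from the first to the third quartile. The core medians lie between 27.01 and 30.9 in every list, below those of the regions under 1 kb and 1 to 10 kb.

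The strongest member was a region of 5089 bases inside CROCC, a gene for a protein of the ciliary rootlet (chr1:17228941-17234029, mean percentile 99.8 ± 0.434, SD, n = 10 lists). Its midpoint lay 209 bases from an annotated non-coding transcript, and a second CROCC region (chr1:17220591-17224621, 98.2 ± 2.76) lay 131 bases from RNU1-2, a gene of the U1 small nuclear RNA of the spliceosome. The lowest values of both came from the RAD21 line at 1 h (99.1 and 98.8 in the first, 94.4 and 91.9 in the second). The same held for the region near EAPP at RNU1-28P (chr14:35023105-35026505, 97.8 ± 3.87), with 92.3 and 88.9 at 1 h in the RAD21 line and 98.8 or more in every other list. U1 genes occur in near-identical copies between which reads could be split, so the regions at RNU1-2 and RNU1-28P are uncertain. The summit windows of both CROCC regions share closely similar stretches of sequence, so the strongest region is uncertain as well.

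The second strongest region, between genes and 83.5 kb from PTPDC1 (chr9:96927738-96932792, 99.6 ± 0.293), lay at the start of MIRLET7A1HG, the host transcript of let-7a-1. Its H3K4me1 percentile was 40.6 ± 7.25 (n = 6 lists), far below the core median. The region near EPB41L1 (chr20:34637237-34639522, 98.1 ± 1.39) lay at the start of NORAD, a non-coding RNA that binds PUMILIO proteins. The region near DEF8 (chr16:90038289-90040798, 98.7 ± 0.881) lay at AFG3L1P. The remaining regions of the 10 strongest lay near OR4F5 at MIR1302-2HG (98.0 ± 2.45, near a chromosome end and uncertain), ERN1 at SNORD104 (97.9 ± 2.01) and NPTX1 (97.4 ± 1.37). Of the 10 strongest regions 9, and of the 50 strongest 36, lay within 1 kb of another annotated start.

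The exception among the 10 was a region between genes, 47.5 kb from EZR, which encodes ezrin, a linker of actin to the plasma membrane (chr6:159282164-159293563, 98.9 ± 2.12). Its H3K27ac percentile was 99.1 and 99.4 in the WT 0 h lists, 93.0 and 99.7 at 1 h and above 98 elsewhere, and its H3K4me1 percentile was 98.7 ± 0.403. The next strongest away from any start, chosen after their values were seen, lay near DDIT4, an inhibitor of mTORC1 signalling (chr10:74054740-74059609, 97.3 ± 1.93), GRAPL (chr17:19012774-19017066, 97.2 ± 3.72), C2orf42 (chr2:70367043-70371088, 97.2 ± 1.88), MRTFA, a coactivator of serum response factor (chr22:41046547-41049661, 97.0 ± 1.42), and KRT80, a keratin of epithelial cells (chr12:52536794-52547770, 96.8 ± 5.46). With the EZR region, 4 of the 6 had an H3K4me1 percentile above 98. It was 94.7 near C2orf42 and 63.2 near MRTFA.

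Core regions had a median width of 2228 bases after merging (quartiles 1581 and 3314, range 365 to 69531), and 126 exceeded 10 kb. The summits of the 10 lists fell within a median of 393 bases of each other, and within 1 kb in 91.0% of regions. The widest lay near BLID (chr11:122005569-122075099, 69531 bases), 10812 bases from the start of MIR100HG, the host of miR-100. The next lay over the start of EZR (chr6:159175141-159241755, 66615 bases), near IFNE and MIR31HG (chr9:21542055-21594332, 52278 bases), in PCDH7, a protocadherin (chr4:30751769-30799308, 47540 bases), and over the start of SLC7A5, an amino acid transporter (chr16:87864298-87905873, 41576 bases). In the BLID region the percentile was 37.6, 41.6 and 39.1 in the 3 lists whose peak names lack the word input and between 61.7 and 80.4 in the other 7. The PCDH7 region showed the same split, with 39.3, 43.4 and 51.9 against 76.2 to 90.6. Both regions thus ranked lower in those 3 lists, whatever their treatment.

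Within the core, the percentile went together with width, with a Spearman correlation of 0.56 across 4889 regions, which share lists and are not independent replicates. The correlation was 0.18 with the GC share of the 300-base window, 0.11 with the H3K4me1 percentile (4855 regions) and 0.03 with the distance to the coding start. Widths are set by the merging of peaks, and stronger peaks are called wider, so the first value is a property of the calls as well. From the weakest to the strongest 10% of the core the median width went from 1450.5 to 3678 bases, the median GC share from 50.0% to 61.0% and the share of regions at another start from 9.43% to 45.4%.

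In base composition the core differed from coding promoters. The median GC share was 51.3% in the core and 69.3% under 1 kb, and the ratio of observed to expected CpG 0.28 and 0.81. In the 1000 bases around the summit the AP-1 motif TGANTCA, searched on both strands, was present in 3148 core regions (64.4%), against 14.1% of regions under 1 kb, 46.5% at 1 to 10 kb and 68.3% beyond 100 kb. Within the core it was found in 70.4% of the regions away from any start and 38.1% of those at another start. The TEAD motif GGAATG was present in 47.8% of core regions and 32.3% of regions under 1 kb. The SP/KLF motif GGGCGG went the other way, with 39.8% and 92.6%, and so did the ETS motif CCGGAAG, with 9.22% and 30.8%. Matches to TCF/LEF (ATCAAAG) were present in 12.4% and 5.47%, to FOX (TGTTTAC) in 13.7% and 7.13% and to CTCF in 1.57% and 1.20%. The p53 element within these 1000 bases was present in 0.266% and 0.0102%. Beyond 100 kb the shares for TEAD (50.1%), TCF/LEF (15.2%), FOX (16.8%) and the p53 element (0.489%) were above those of the core. Those for SP/KLF (28.7%), ETS (9.13%) and CTCF (0.652%) were below. Short motifs depend on base composition, which differs between the classes. The AP-1 share was 68.9% in the weakest 10% of the core and 43.1% in the strongest 10%.

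**Figure D2:**
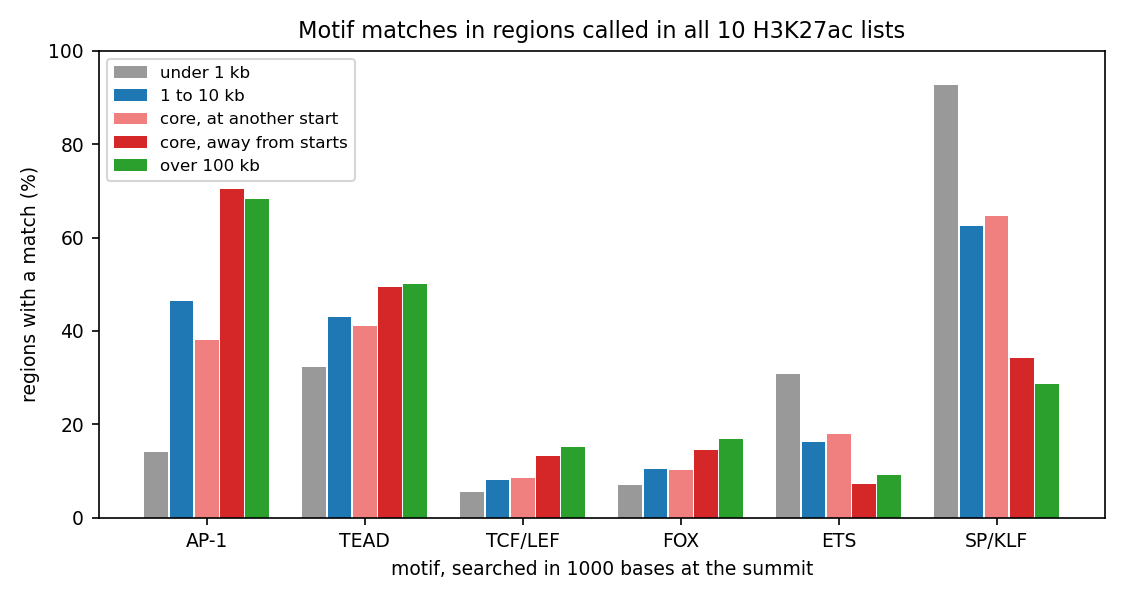
Share of regions (vertical axis, %) with a match to each of 6 motifs in the 1000 bases at the summit, for regions called in all 10 lists by distance class, with the core split into regions at another annotated start and away from any start. AP-1 was found in 70.4% of core regions away from starts and 14.1% of regions under 1 kb, and SP/KLF in 34.1% and 92.6%.

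H3K4me1 was near-universal in the core. All 6 lists held an H3K4me1 peak over 4850 core regions (99.2%), none did over 19, and 1 to 5 lists did over 20. The same share was 99.6% under 1 kb, so that the presence of the mark did not set the core apart. Its median rank was well above that near promoters, somewhat above that beyond 100 kb and about that at 1 to 10 kb. Among the 60476 H3K4me1 regions called in all 6 lists, those over the core had a median mean percentile of 89.7 (quartiles 77.5 and 95.5), against 65.3 under 1 kb, 89.4 at 1 to 10 kb (quartiles 76.7 and 95.9) and 85.5 beyond 100 kb. The median was 90.6 in core regions away from any start and 80.3 at another start. The core median lay between 89.6 and 90.3 in each of the 6 lists. A core region takes the rank of the H3K4me1 region that overlaps it most, so neighbouring core regions can share 1 value. Those H3K4me1 regions had median widths of 6320.5 bases over the core, 4403 under 1 kb, 8405.5 at 1 to 10 kb and 5829.5 beyond 100 kb. The part of width in these ranks was not tested.

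**Figure D3:**
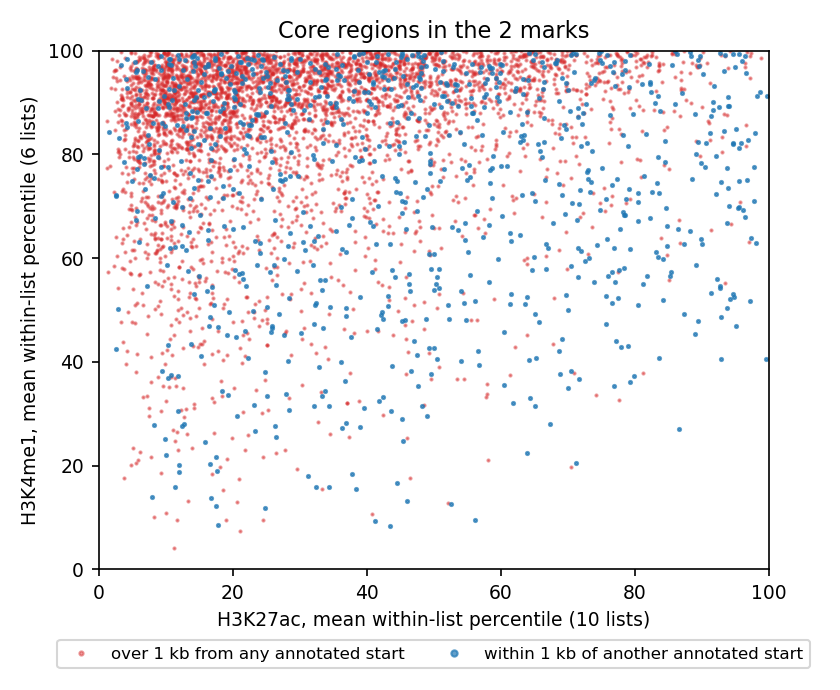
Mean within-list percentile of H3K27ac (horizontal axis, 10 lists) and of H3K4me1 (vertical axis, 6 lists) for the 4855 core regions ranked in both marks, 1 point per region. Regions away from any annotated start (red) crowd at low H3K27ac and high H3K4me1 percentiles, with medians of 25.8 and 90.6, and regions at another start (blue) have medians of 43.5 and 80.3.

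The highest H3K4me1 ranks of the core lay near ZNF34, ZNF469 and in RPTOR, a subunit of mTORC1, with H3K27ac percentiles of 54.4 ± 5.09, 59.6 ± 10.3 and 69.9 ± 9.31 (n = 10 lists). Among the 19 regions without H3K4me1 in any list the strongest in H3K27ac lay near PLEKHG4B (chr5:10010-11783), at the end of the assembled chromosome arm. Its percentile was 50.4 and 46.9 at WT 0 h, 99.9 and 98.4 at 1 h, 9.67 and 25.5 at 10 h, and 93.4 to 98.6 in the RAD21 line. No other core region varied as much (SD 35.1). Sequence at chromosome ends is repeated elsewhere, so that this region is uncertain. The next were near LPCAT1 (chr5:1539333-1540386, 49.2 ± 19.9) and PPP4R3C (chrX:27416215-27417515, 47.1 ± 9.07).

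The core regions had 3215 different nearest coding genes, of which 2205 had a single core region, 374 had 3 or more and 72 had 5 or more. Most belonged to CUX1, a homeobox transcription factor, with 11 regions over 101372250 to 101797423 on chromosome 7 (mean percentiles 5.06 to 56.9, 8 of them in introns). DST, a linker of cytoskeletal filaments, had 8 regions, all in its introns (3.19 to 64.5), and SH3BP4 had 8 (6.40 to 38.5). ERRFI1, an inhibitor of EGFR signalling, had 7 regions that together spanned 55533 bases between 8099517 and 8184219 on chromosome 1 (17.2 to 84.3). SMURF2, a ubiquitin ligase of TGF-β signalling, SCG2, a secretogranin, YWHAZ, a 14-3-3 protein, and LRRC37A3 had 7 each, as did ARHGAP29, MCFD2, CMIP and ZBED1. The nearest gene is a label here and was not tested as a target.

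Rank changes were tested with limma on normal scores of the within-list ranks over all 18757 regions, where 0 is the middle of a list, with Benjamini-Hochberg adjustment over all of them and calls at an adjusted p under 0.05. A rise or fall below is one in rank within a list, not in amount of acetylation, and the requirement of a peak in every list keeps regions that were lost altogether out of the core. With 10 h of Nutlin-3a in WT, 734 core regions rose (15.0% of the core, against 9.7% of all regions tested) and 308 fell (6.30%, against 8.56%). The background is in large part promoters, and the excess was shared by the other classes away from them: 16.4% rose and 4.62% fell at 1 to 10 kb, 18.7% and 5.46% beyond 100 kb, and 4.02% and 11.2% under 1 kb. The median change was 0.05 in the core and -0.04 over all regions. Away from any start 664 regions rose and 212 fell, and at another start 70 rose and 96 fell. Ranked by the fold enrichment of the peaks in place of their p-value, 491 rose and 483 fell, about the shares of all regions (10.1% and 9.58%). With the form of the peak names as a term in the fit 95 rose and 59 fell (1.94% and 1.21%, against 2.06% and 2.34% of all regions). The excess of rises in the core over the background was thus present in neither.

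The core regions that rose at 10 h were wide (median 4582.5 bases, against 2228 in the whole core), with 47.5% GC, AP-1 in 71.9% and a median H3K4me1 percentile of 94.0. Those that fell were narrow (1570 bases), with 59.0% GC, AP-1 in 43.2% and another start in 31.2%. Width is also what the name forms of the lists moved with, and its part in the result was not tested.

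**Figure D4:**
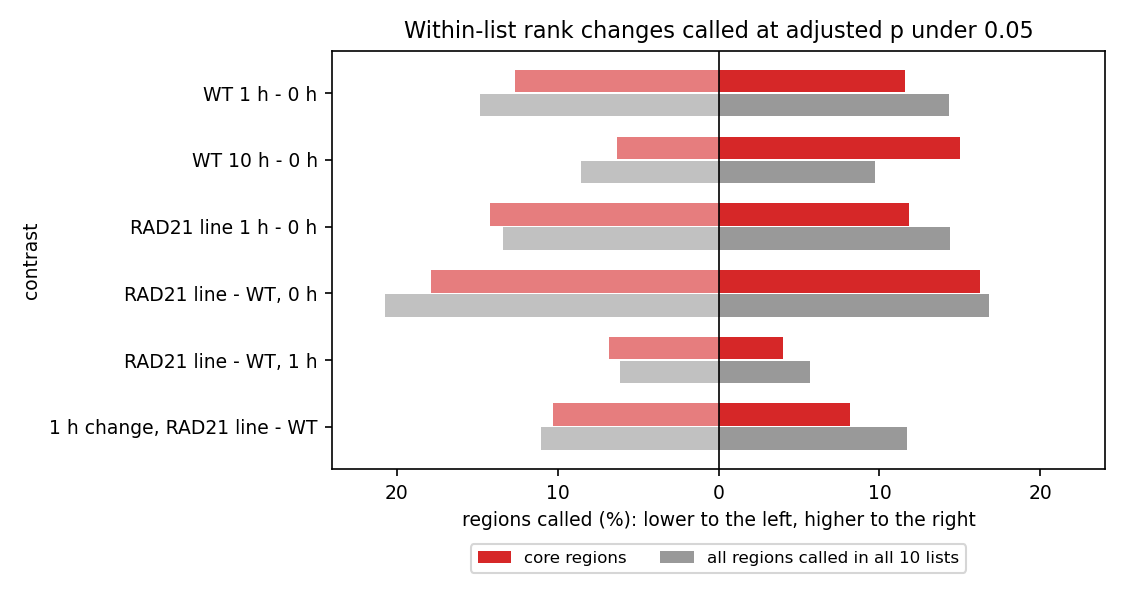
Share of regions called (horizontal axis, %, lower to the left and higher to the right of 0) in each of 6 contrasts of within-list rank, for the core (red) and for all 18757 regions called in all 10 lists (grey). The core exceeds the background in rises at 10 h in WT, 15.0% against 9.7%, and lies at or below it in rises in the other 5 contrasts.

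The smallest p-values among the rises at 10 h belonged to regions near TMOD3, GAS6 and GPR157. TMOD3 encodes tropomodulin 3, which caps actin filaments, and the region lay in its intron (chr15:52154999-52158709). Its percentile was 0.419 and 1.11 at 0 h, 22.95 and 33.2 at 1 h and 59.9 and 58.8 at 10 h, and 14.8 to 25.3 in the RAD21 line. The 3 WT time points did not overlap, and the 10 h change was 2.70 (SE 0.188, limma adjusted p = 1.72e-05). GAS6 is a ligand of the receptor AXL. The region in its intron (chr13:114539475-114544930) was at 75.9 and 73.9 at 0 h and at 98.8 in both 10 h lists, a change of 1.59 (SE 0.116, adjusted p = 2.07e-05). It carried no p53 element. The region near GPR157 (chr1:9240240-9243580) lay 153 bases from the start of LNCTAM34A, the host transcript of miR-34a, a known p53 target. It was at 70.6 and 63.8 at 0 h, 67.2 and 84.0 at 1 h and 99.4 and 99.0 at 10 h, a change of 1.96 (SE 0.168, adjusted p = 3.79e-05). All 3 stayed called by fold enrichment and with the name form as a term.

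Among the falls at 10 h the smallest p-values lay near DHRS7B (chr17:21001923-21003836), KLHDC4 (chr16:87810870-87815061) and CREB3L1, a transcription factor of the endoplasmic reticulum (chr11:46263634-46265779). The DHRS7B region went from 59.5 and 53.4 at 0 h and 80.4 and 68.2 at 1 h to 2.66 and 3.75 at 10 h (change -2.02, SE 0.157, limma adjusted p = 3.17e-05). KLHDC4 went from 92.0 and 90.3 to 60.1 and 64.5, and CREB3L1 from 92.9 and 96.5 to 77.0 and 75.4. The call near CREB3L1 was lost by fold enrichment (adjusted p = 0.0542).

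The 14 core regions with a p53 element, an element whose choice for this comparison was made after values had been seen, all changed in the positive direction at 10 h. Of them 12 were called higher and 0 lower by limma (0 also lower at an unadjusted p under 0.05), with a median change of 1.25. A higher call was made in 15.0% of the core and 9.7% of all regions. These 12 were 1.63% of the 734 core regions that rose, so nearly all rises lay outside these regions. Over the 18757 regions 32 held an element and 26 of these rose. Outside the core these were 8 of 8 beyond 100 kb, 5 of 6 at 1 to 10 kb and 1 of 4 under 1 kb. Ranked by fold enrichment 7 of the 14 were called and 12 were positive (median 0.97), and with the name form as a term 8 were called and 13 were positive (median 1.30). The number called thus fell under both, and no element-bearing region was called lower in either. After TMOD3 and GPR157 the largest changes were near PLXDC1 (17.6 and 11.5 at 0 h, 72.7 and 72.3 at 10 h, change 1.66), in MED4, a subunit of Mediator (28.9 and 24.8, then 85.4 and 82.2, change 1.61), and in RFLNA, a filamin-binding protein (2.92 and 7.23, then 39.9 and 43.98, change 1.47).

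The region near SPTLC1, a subunit of the first enzyme of sphingolipid synthesis, rose from 25.1 and 40.4 to 79.6 and 82.1 (change 1.33), and the region near HLA-B, an MHC class I gene, from 14.8 and 4.22 to 43.6 and 47.5 (1.27). TGFA encodes a ligand of EGFR, and its region (chr2:70822780-70825360) went from 62.1 and 65.2 to 93.3 and 95.1 (1.23). In MSI2, an RNA-binding protein, the change was 1.17, near IER5, a known p53 target, 0.89, near PLAC8 0.73 and in PRKAG2, a subunit of AMP-activated kinase, 0.51. The calls near SPTLC1, HLA-B, MSI2 and in PRKAG2 were lost by fold enrichment, as was that near PLAC8, where the change was then -0.16. The regions near HNRNPA3 (change 0.60, limma adjusted p = 0.0587) and MYF5 (0.30, adjusted p = 0.189) were not called. Near HNRNPA3 the element lay 4409 bases from the median summit, and in the other 13 regions 14 to 340 bases from it.

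At 1 h the elements showed no such pattern. In WT 2 of the 14 rose (TMOD3, change 1.87, and RFLNA, 0.83) and 1 fell (MYF5, -0.90). Of all regions 14.3% rose and 14.8% fell there. In the RAD21 line 0 rose and 3 fell, those near IER5 (-0.38), MYF5 (-0.60) and RFLNA (-0.58). Of all regions 14.4% rose and 13.4% fell in that line. No H3K4me1 peak lay over the regions near PLXDC1 and HLA-B in any list, and 5 of 6 lists held one near PLAC8. The remaining 11 had H3K4me1 percentiles of 76.3 to 98.7.

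**Figure D5:**
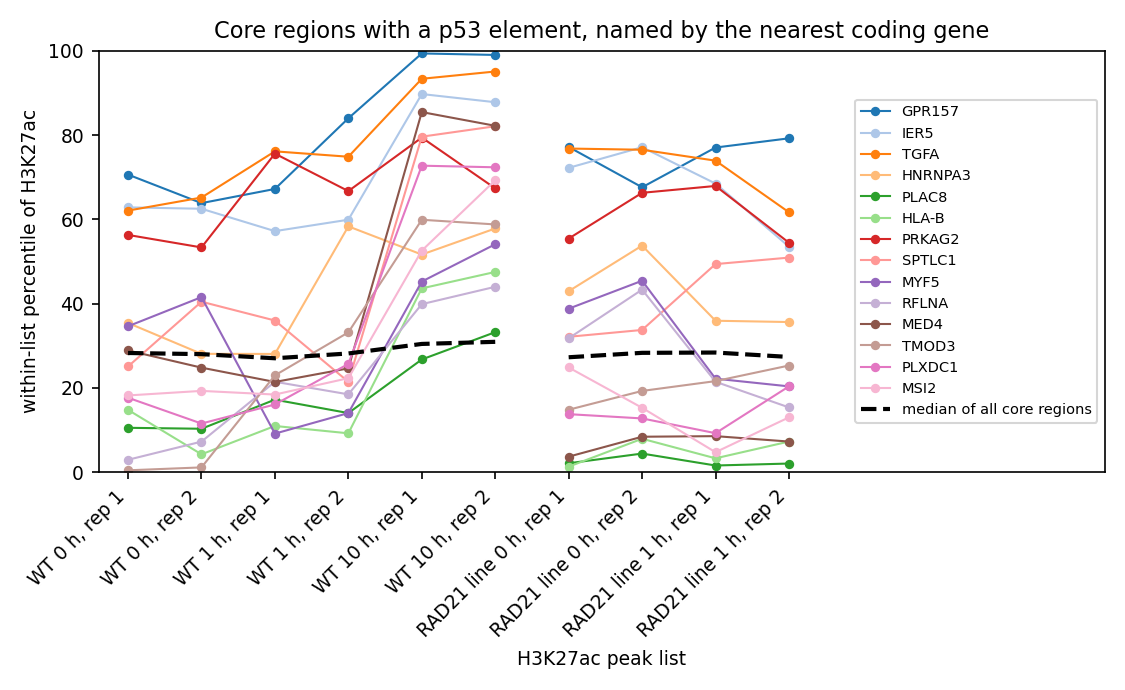
Within-list percentile of H3K27ac (vertical axis) in each of the 10 lists for the 14 core regions with a p53 element, 1 line per region, with the median of all core regions as a dashed line. In the WT 10 h lists the 14 regions sit at 26.7 to 99.4, and TMOD3 moves from 0.419 and 1.11 at 0 h to 59.9 and 58.8.

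With 1 h of Nutlin-3a in WT, 567 core regions rose (11.6%, against 14.3% of all regions) and 618 fell (12.6%, against 14.8%). Ranked by fold enrichment 0 were called in either direction by limma, with 327 higher and 578 lower at an unadjusted p under 0.05. The 3 smallest p-values among the rises belonged to regions on chromosome 16 near RP11-1212A22.4 (chr16:18493167-18497153), NPIPA1 (chr16:15004053-15009632) and NOMO3 (chr16:16402592-16407160). All lie beside copies of the PKD1 pseudogenes and NPIP genes, whose near-identical sequence makes their values uncertain. NOMO3 went from 76.7 and 75.2 to 99.8 and 98.9, and was back at 75.6 and 75.7 at 10 h. The smallest p-values among the falls lay in CATIP (chr2:219231687-219233244, from 96.2 and 95.7 to 69.4 and 66.4) and nearest to FCGR2A and ACSF3. The region nearest to FCGR2A (chr1:161409608-161411135) went from 69.4 and 73.7 to 28.5 and 24.7. That nearest to ACSF3 (chr16:89117317-89121289) went from 95.3 and 96.0 to 69.3 and 73.4.

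In the RAD21 line 579 core regions rose at 1 h (11.8%, against 14.4%) and 694 fell (14.2%, against 13.4%). By fold enrichment 0 were called, with 363 higher and 449 lower at an unadjusted p under 0.05. The smallest p-values among the rises lay near SRRM1 (chr1:25009090-25011687, from 2.56 and 2.62 to 38.3 and 40.2), in LTBP2, a protein of the extracellular matrix (chr14:75045094-75047991, from 4.45 and 5.72 to 44.9 in both lists), and in RAD18, a ubiquitin ligase of DNA damage tolerance (chr3:8910342-8912722, from 0.882 and 2.39 to 37.2 and 33.8). Among the falls they lay near KLHDC4 (from 92.8 and 90.8 to 26.2 and 28.0), near FOS, a subunit of AP-1 (chr14:75724073-75727429, from 98.9 in both lists to 73.7 and 73.4), and in LONRF2 (chr2:100906083-100910452, from 93.7 and 93.1 to 46.9 and 49.5). The KLHDC4 region is the one that also fell in WT at 10 h.

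The 1 h contrasts of the 2 lines share no list, but both come from 1 fit with the same residual variance for a region. Their calls are therefore not independent, and a region with a small variance is more readily called in both. Of the core regions that rose in WT, 134 also rose in the RAD21 line (23.6% of 567 and 23.1% of 579) and 97 fell there (17.1% of 567). Of those that fell in WT, 138 also fell in the RAD21 line (22.3% of 618 and 19.9% of 694) and 38 rose there (6.15% of 618). In the whole core 11.8% rose and 14.2% fell in the RAD21 line. By fold enrichment there were no calls in either contrast to compare.

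Between the lines at 0 h, 794 core regions ranked higher in the RAD21 line than in WT (16.2%, against 16.8%) and 875 lower (17.9%, against 20.7%). The name forms of these 4 lists differ between the lines. The smallest p-values among the higher ones lay near ZSWIM9, in LONRF2 and near ECHDC1. The first region (chr19:48705975-48708489) lay 33.3 kb from ZSWIM9, at the start of a CARD8 transcript that is not protein-coding. It stood at 23.95 and 24.3 in WT and 87.9 and 87.7 in the RAD21 line. LONRF2 stood at 35.1 and 41.9, then 93.7 and 93.1, and ECHDC1 (chr6:127686599-127689125) at 25.3 and 22.1, then 85.9 and 91.7. Among the lower ones the smallest p-values lay near STC1, a secreted hormone (57.9 and 48.0, then 2.35 and 5.66), in ACYP2 (72.1 and 71.0, then 8.25 and 14.0) and near KLF6, a zinc finger transcription factor (36.3 and 44.7, then 2.56 and 1.35). At 1 h fewer differed: 197 ranked higher (4.03%, against 5.68%) and 334 lower (6.83%, against 6.15%). By fold enrichment 0 were called at 1 h, with 247 higher and 516 lower at an unadjusted p under 0.05. With the name form as a term the gap between the times was smaller, with 441 higher and 621 lower at 0 h and 292 and 513 at 1 h. CLYBL (34.4 and 26.1 in WT, 74.5 and 70.7 in the RAD21 line), PDGFC, a growth factor, and MTAP, an enzyme of methionine salvage, led the higher ones. Regions at the U1 variant gene RNVU1-9 near NBPF24, at the U5 gene RNU5F-1 near KIF2C, and in CTNNA1, which encodes α-catenin (23.4 and 29.2, then 0.165 and 0.480), led the lower ones. The small nuclear RNA genes have near-identical copies and are uncertain.

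The difference between the lines in their 1 h change was tested as an interaction. It was higher in the RAD21 line for 400 core regions (8.18%, against 11.7%) and lower for 504 (10.3%, against 11%). By fold enrichment 0 were called, with 382 higher and 315 lower at an unadjusted p under 0.05. The LONRF2 region rose in WT (change 0.84) and fell in the RAD21 line (-1.55), a difference of -2.39 (SE 0.157, limma adjusted p = 1.19e-05). The same reversal was measured near ECHDC1 (0.92 and -1.55) and near ZSWIM9 (0.90 and -1.07). In all 3 the lists of the RAD21 line at 0 h stood highest of all groups. The opposite was seen in COLGALT1, a collagen galactosyltransferase (chr19:17690098-17691748), which stood at 62.4 and 54.1 in WT at 0 h, 18.1 and 18.3 at 1 h, 13.7 and 6.06 in the RAD21 line at 0 h and 26.0 and 31.0 at 1 h. HS3ST6, a heparan sulfate sulfotransferase (chr16:1979087-1980197), and CFAP53, a ciliary protein (chr18:47765088-47767945), followed.

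Of gene lists chosen with earlier results known, the shares of genes that were nearest to a core region were above the 16.2% of all coding genes in each case. They were 10 of 40 p53 targets, 10 of 31 Wnt and stem cell genes, 18 of 36 intestinal and epithelial transcription factors, 18 of 31 AP-1 and immediate early genes, 18 of 26 genes of EGFR and MAPK signalling, 32 of 57 genes of adhesion and the cytoskeleton and 12 of 28 genes of TGF-β and YAP signalling. The lists were not matched to other genes for the length of their surroundings. At 10 h in WT the 45 core regions of the EGFR and MAPK genes had a median change of 0.56, against 0.05 over the core. Of these 22 were called higher and 2 lower, against 15.0% and 6.30% of the core. Neighbouring regions of 1 gene are counted separately here, and 7 of the 45 lay near ERRFI1. By fold enrichment 13 were called higher and 3 lower (median 0.40), against 10.0% and 9.88% of the core. With the name form as a term the median was 0.10, with 1 called in each direction. For the p53 targets the 18 regions had a median of 0.24, with 7 higher and 0 lower (by fold enrichment 4 and 0), and 0.44 with the name form as a term, with 2 and 0.

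The strongest region of ERRFI1 (chr1:8146085-8161793) went from 75.9 and 69.7 at 0 h to 95.7 and 96.2 at 10 h, and 6 of the 7 ERRFI1 regions were called higher. The strongest of DUSP5, a phosphatase of ERK, went from 83.8 and 78.0 to 95.6 and 96.6 (change 0.88, limma adjusted p = 0.0208), and that of SPRY4, an inhibitor of the pathway, from 81.7 and 75.4 to 92.1 and 91.9 (0.61, adjusted p = 0.0455). Replicate 2 of WT 1 h, which shares its name form with the 10 h lists, stood at 92.2, 98.1 and 93.1 in these 3 regions, and replicate 1, which shares it with the 0 h lists, at 65.6, 86.6 and 74.9. Among the p53 targets the region near GADD45A, a regulator of growth arrest, stood at 61.3 and 54.5 at 0 h and 63.7 and 59.2 at 10 h.

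The median 10 h changes of the other lists were 0.10 for the Wnt and stem cell genes (20 regions, 4 higher and 1 lower), 0.27 for the transcription factors (47, 14 and 2), 0.03 for the AP-1 and immediate early genes (41, 9 and 2), 0.27 for adhesion and the cytoskeleton (58, 13 and 1) and 0.17 for TGF-β and YAP signalling (28, 7 and 2). In the whole core 15.0% rose and 6.30% fell. With the name form as a term the medians were 0.14 (1 higher and 0 lower), 0.05 (3 and 0), 0.09 (3 and 1), -0.01 (1 and 1) and 0.18 (0 and 0) in the same order. The region in TCF7L2, a Wnt effector (chr10:114826361-114836942), stood at 44.3 and 49.5 at WT 0 h and at 89.0 and 87.3 in the RAD21 line. The region near MYC on chromosome 8 rose at 1 h in both lines, from 85.8 and 88.3 to 95.4 and 96.5 in WT and from 82.9 and 84.0 to 95.1 and 92.2 in the RAD21 line. The strongest region near FOS (chr14:75759513-75763437) fell in both, from 94.2 and 96.5 to 82.1 and 83.5 and from 98.0 and 98.2 to 85.8 and 84.0. MYOF, ACTN4 and KRT80 held the strongest regions of the adhesion and cytoskeleton list, and the MYOF region (chr10:95212828-95244203) went from 59.8 and 59.6 at 0 h to 81.4 and 94.7 at 1 h and 94.7 and 95.7 at 10 h. In the transcription factor list the TEAD1 region rose at 10 h (change 0.65, limma adjusted p = 0.0253), and those of ZNF217 and KLF5 were not called (0.41 and 0.34).

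H3K4me1 over the core changed rank rarely. The core fell into 4371 distinct H3K4me1 regions, of which 18 rose and 11 fell at 1 h (background 0.291% and 0.304% of 60476) and 10 rose and 2 fell at 10 h (0.615% and 0.0231%). Ranked by fold enrichment 0 of them were called, with 231 higher and 198 lower at an unadjusted p under 0.05 at 1 h and 147 and 99 at 10 h. Over the MAEA region, part of a ubiquitin ligase complex (chr4:1314990-1324477), H3K4me1 went from 64.9 and 66.2 at 0 h to 95.5 and 96.4 at 1 h and 62.8 and 62.2 at 10 h (1 h change 1.35, SE 0.166, limma adjusted p = 0.00274). H3K27ac went from 2.36 and 1.94 to 35.2 and 51.2 and was at 18.7 and 22.7 at 10 h, and in the RAD21 line from 7.35 and 6.65 to 48.3 and 48.0. Both marks thus rose at 1 h in this region. In SPEN, a transcriptional repressor (chr1:16241507-16244432), H3K4me1 went from 0.851 and 2.31 at 0 h to 50.9 and 55.9 at 10 h (change 2.28, SE 0.366, adjusted p = 0.00711), and H3K27ac from 1.63 and 1.06 to 27.9 and 30.2. In PRKD2, a protein kinase (chr19:47195613-47198794), the marks parted at 1 h, H3K4me1 going from 84.2 and 68.8 to 32.8 and 13.1 and H3K27ac from 1.21 and 1.22 to 11.2 and 22.6.

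The other smallest p-values for H3K4me1 at 1 h lay near POLR2J2 (from 87.8 and 78.7 to 99.5 and 98.9) and SLC46A2 (from 37.01 and 49.3 to 91.6 and 88.8) among the rises. Among the falls they lay in ACAP2 (from 90.5 and 90.6 to 64.9 and 58.3) and near SH2D6 (from 96.1 and 96.2 to 76.1 and 81.5). The ranks near SLC46A2 and in ACAP2 were back at 52.6 and 48.1 and at 89.0 and 90.6 at 10 h. At 10 h H3K4me1 rose near IQSEC1 (from 83.9 and 81.9 to 98.2 and 97.8) and in SPNS2, a transporter of sphingosine-1-phosphate (from 65.9 and 60.5 to 92.9 and 92.5). The 2 core falls at 10 h lay in GSE1 (change -0.81) and HIPK2, a protein kinase (-0.81), both within the top ranks of every list. None of these calls was made by fold enrichment.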

How the data were processed

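Peak lists of 16 ChIP-seq libraries were used, 10 for H3K27ac and 6 for H3K4me1, in 8 groups of 2 taken from the sample labels. The 10 input libraries were not used here. Per the study's methods the authors trimmed reads (Trim Galore 0.6.6), mapped them to GRCh37 (Bowtie2 2.3.2) and called narrow (H3K27ac) or broad (H3K4me1) peaks per library with MACS2 2.2.7.1 against an input. The deposited lists give each peak's fold enrichment over the local background and its −log10 p-value and −log10 q-value, as the authors' peak caller wrote them. They hold no read counts, so depth is unknown and values were compared only as ranks within a list.

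Overlapping peaks of each mark were joined, and a list counted as calling a region where any of its peaks overlapped it by 1 bp or more. Distances ran from the midpoint to the starts of protein-coding transcripts (GENCODE 44 on GRCh37), where the study had used another release. Windows of 300 and 1000 bases were centred on the median summit and read from GRCh37. Regions called in all lists of a mark were ranked by −log10 p-value, and normal scores of the ranks were fitted with limma 3.58.1 (lmFit, eBayes with a trend) in R 4.3.3, all groups of a mark in 1 fit without covariates. Scripts were tested on simulated data.

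Members and gene lists were chosen with earlier results of these data known. Regions named are the 10 strongest, the 5 widest, in each contrast and direction the 3 with the smallest p-values (among calls), the 3 strongest of each gene list, those with the highest or no H3K4me1, the genes with most regions, and, added later, p53 elements and the strongest away from any start. Not every region so named is described. Alternatives were another ranking value or scale, stricter peaks, other start sites, the name form or replicate number as a term, and leaving out each list.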

Additional observations from a re-analysis of the deposited data

Results flagged for a closer look

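The 1 h change differed between the RAD21 line and WT by the interaction test in 400 core regions (higher) and 504 core regions (lower). These were 8.18% and 10.3% of the core, against 11.7% and 11% of all regions. Among the regions with the smallest p-values, the 1 h change in the RAD21 line exceeded that in WT by 1.87 in COLGALT1, 1.48 near HS3ST6 and 1.69 in CFAP53. It was below that in WT, with differences of -2.39 in LONRF2, -2.47 near ECHDC1 and -1.97 near ZSWIM9. Of the 14 regions with a p53 element 3 were called lower, near TGFA (-0.60), in RFLNA (-1.42) and in TMOD3 (-1.64), and 0 higher. Of all regions 11% were called lower and 11.7% higher. In RFLNA the WT lists went from 2.92 and 7.23 at 0 h to 21.4 and 18.4 at 1 h and the RAD21 line from 31.7 and 43.3 to 21.4 and 15.3, so the 0 h lists of the lines differed and the 1 h lists overlapped. Groups of 2 lists are too small to look for a list that stands apart within its group.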

How the results depend on the processing

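The size of the core was 1218 where peaks had to cover 50% of a region in every list and 3001 with starts of every biotype, and 4916 to 5136 with any 1 list left out. H3K4me1 in all 6 lists covered 96.1% of the core at 50% cover and 94.3% with stricter peaks. Counts are given as higher and lower. Ranked by fold enrichment, 0 core regions were called at 1 h in either line, between the lines at 1 h, in the interaction and for H3K4me1, 483 fell at 10 h in WT, and 411 ranked higher in the RAD21 line at 0 h. With the name form as a term there were 95 and 59 at 10 h, 441 higher at 0 h between the lines, 513 lower between them at 1 h and 659 higher in the interaction. Ranked among all peaks of a list, which moved the median 10 h change of all regions to 0.28 and of the core to 0.40, there were 2281 and 25 at 10 h, 243 lower at 1 h in WT, 183 and 375 in the RAD21 line, 209 lower between the lines at 0 h, 99 and 74 at 1 h, and 101 higher in the interaction. For H3K4me1 0 were called without the trend (137 higher and 149 lower at an unadjusted p under 0.05 at 1 h, 96 and 34 at 10 h) and, on the percentile scale, 0 and 0 at 1 h (283 and 298 unadjusted) and 4 and 0 at 10 h. The following 10 h changes reversed: HNRNPA3 with the name form as a term (-0.19), and PLAC8 (-0.16) and MYF5 (-0.50) by fold enrichment. The cause was not tested.

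Leaving out 1 list gave 278 to 883 higher and 239 to 823 lower at 1 h in WT (lowest without replicate 1 of WT 0 h, highest without replicate 1 of WT 1 h), 186 to 1115 and 34 to 620 at 10 h (lowest without replicate 2 of WT 10 h and of WT 0 h, highest without a WT 1 h list), and 203 to 865 and 336 to 977 in the RAD21 line (lowest without one of its 1 h lists). Between the lines there were 497 to 1038 and 491 to 1157 at 0 h (lowest without replicate 2 of the RAD21 line at 0 h or a WT 0 h list) and 12 to 644 and 80 to 561 at 1 h (lowest without a 1 h list of the RAD21 line, highest without replicate 2 of WT 1 h). The interaction gave 171 to 664 and 274 to 815 (lowest without a 1 h list of the RAD21 line, highest without a WT 1 h list). H3K4me1 gave 1 to 13 and 0 to 6 at 1 h and 0 to 9 and 0 to 2 at 10 h. Within 1 name form, WT 1 h against 0 h without replicate 2 of WT 1 h and the lines at 1 h without replicate 1 of WT 1 h are among these fits.

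Deviations of same-numbered lists correlated at -0.05 to 0.05. Replicate numbers were taken from the labels, and the peak names of some lists carry another number. Those of replicate 2 of the RAD21 line at 0 h carry more than 1. These correlations and the block below therefore cannot decide whether lists were paired. With the replicate number as a block the counts were 554 and 600 at 1 h, 717 and 291 at 10 h, 572 and 666 in the RAD21 line, and 783 and 848, 180 and 296, and 388 and 485 in the other contrasts. Over 59 pairs of a named region and a contrast, 789 of 917 alternative values kept their direction and side of the threshold, 120 lost the call, 5 gained one and 3 reversed. Most of these alternatives leave out 1 list. By fold enrichment 17 of 59 kept direction and side, 40 lost the call and 2 reversed.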
